A study of Mus musculus with 2 samples.

Results

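A set of genes of gliosis and of the acute-phase response were described in single-cell RNA libraries from the mouse eye: Gfap, Vim, Serpina3n, Timp1, Steap4, Socs3, Stat3, Osmr, Edn2 and Fgf2. They are 10 of the 32286 features in the deposited matrices, taken by gene symbol, and all 10 were found. They were picked with earlier results of these same libraries in view, so their values in Müller glia are a description and not a test. The question put to them was how they stood in Müller glia and in other cells of eyes that received a miR-181a/b sponge, set against eyes that received a control vector. Such a sponge transcript carries repeated sites for a microRNA, which it soaks up so that fewer copies reach the genes it represses.

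Both groups were Abca4KO mice, which lack the photoreceptor transporter whose human gene is mutated in Stargardt disease, so the knockout was shared by the control. The control eyes carried AAV2.8-GFP and the treated eyes AAV2.8-Sponge.mir181, each delivered under the retina, with the 2 vectors in opposite eyes of an animal. Per the series, mice were injected when 2 months old and the eyes taken 4 months later; the sample labels, which disagree, say 4 months. The material was the optic cup, the posterior eye with retina, pigment epithelium and adjoining tissue, dissociated with papain. Each group is 1 library, the sources used here do not give the number of mice, and cells are not assigned to them, so no replicate error exists and no test was run. Intervals below are 95% intervals of counting error alone, which leave out differences between mice, eyes, injections and dissociations. Those of levels and ratios also treat UMIs as independent of one another. They are therefore too narrow where few cells hold many of a gene's UMIs, as for Gfap, Serpina3n, Timp1, Steap4 and Edn2 below.

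The GFP-labelled library gave 39285 cells with a median of 2415 unique molecular identifiers (UMIs, each a counted transcript), and the sponge-labelled library gave 23200 cells with a median of 2980.5. Of the barcodes deposited, 290 occurred in both libraries, which is 1.25% of those in the sponge-labelled library, and 18 of the Müller cells described below shared a barcode. The eGFP sequence was counted with 12 UMIs in the GFP-labelled library and 5484 in the sponge-labelled library, so the eGFP counts do not bear out the labels. The groups are therefore named throughout as the libraries labelled GFP and sponge, and every direction rests on those labels. In the cells that resembled Müller glia, as scored below, eGFP had 0 UMIs in the GFP-labelled library. It had 86 in the sponge-labelled library, in 3.07% of these cells. All cells passing the Müller rule described below held 4577 of the 5484 eGFP UMIs of that library, in 301 cells (4.08%). There eGFP was also among the top 10 genes of cells resembling retinal pigment epithelium. Whether cells without an eGFP UMI took up a vector was not tested.

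Müller glia are the radial glia of the retina and respond to injury by building up the intermediate filaments GFAP and vimentin. Much of that response runs through the interleukin-6 family of cytokines. Receptors such as the oncostatin M receptor activate the transcription factor STAT3, which induces its own inhibitor SOCS3 and secreted acute-phase proteins such as serpins. Stressed photoreceptors are known to express endothelin 2, and FGF2 is a growth factor that protects photoreceptors. Several of these genes are also ordinary products of fibroblasts, vessels and pigment cells.

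The microRNAs that the sponge is meant to bind share their seed, bases 2 to 8, shown in capitals in the mature sequences from RefSeq (GRCm38.p6).
mmu-miR-181a-5p: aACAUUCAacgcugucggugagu
mmu-miR-181b-5p: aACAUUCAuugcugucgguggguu
The complement of that seed, TGAATGT, was searched on the sense strand of the longest annotated 3' UTR of each gene (GENCODE M21, mm10). It occurred in 3430 of 20985 genes, or 16.3%. Among the 10 genes only Fgf2 held it, with 4 matches in a 3' UTR of 5311 bases, so they are shown with the match in capitals. The last 2 windows overlap.
Fgf2, chr3:37407375-37407403, plus strand: gaagagatgttTGAATGTtagatgttctg
Fgf2, chr3:37407961-37407989, plus strand: taggagaatggTGAATGTcagcttctgct
Fgf2, chr3:37408611-37408639, plus strand: ttttctgtgtgTGAATGTcatgaatgttg
Fgf2, chr3:37408620-37408648, plus strand: tgtgaatgtcaTGAATGTtgctcatgggc
A match is a run of letters and was not tested for binding.

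Since several of the genes are known as STAT3 targets, their promoters (250 bases before to 50 after the start in RefSeq, GRCm38.p6) were searched for TTCNNNGAA, the palindrome that STAT dimers bind, which reads the same on both strands. It occurred in 2726 of 32851 promoters (8.30%) and in those of Steap4, Gfap and Socs3. The narrower TTCCNGGAA, a subset of the same matches, occurred in 1.15% of promoters and in those of Steap4 and Gfap. The Steap4 and Socs3 matches are shown with 25 bases on either side and the match in capitals, because their levels in Müller cells differed between the libraries in opposite directions.
Steap4, chr5:7960331-7960389, plus strand: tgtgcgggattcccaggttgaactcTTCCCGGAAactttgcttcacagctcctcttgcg
Socs3, chr11:117969487-117969545, minus strand: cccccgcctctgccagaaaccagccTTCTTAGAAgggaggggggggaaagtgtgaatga

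Müller glia were first taken by a detection rule, at least 4 of the 7 markers Rlbp1, Glul, Slc1a3, Aqp4, Dkk3, Car14 and Kcnj10. This gave 13458 cells (34.3% of kept cells, median 3484 UMIs) in the GFP-labelled library and 7382 (31.8%, median 7345.5 UMIs) in the sponge-labelled library. The data went partly against the name. When each cell was scored by how far the summed UMIs of 16 marker lists exceeded the mean of its library, 2682 of the rule cells (19.9%) of the GFP-labelled library and 2147 (29.1%) of the sponge-labelled library resembled Müller glia. The other rule cells were unassigned (38.6% and 19.2%) or resembled melanocytes (9.27% and 8.70%), rods (4.50% and 16.3%), bipolar cells (5.52% and 7.04%), retinal pigment epithelium (RPE; 5.18% and 3.45%) or further types. The summed level of the 7 markers was 4013 and 5148 CPM (UMIs per 1000000 UMIs) in the rule cells and 8289 and 11993 CPM in the Müller-like cells. All 7 were counted in both sets. A detection rule is passed more easily by cells with more UMIs. Rule cells under 0.5-fold of the Müller-marker mean of their library numbered 594 and 1492, with medians of 6333.5 and 9603 UMIs. The rule applied after thinning was among the alternatives given at the end.

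Both sets are used below, as the rule cells and, within them, the Müller-like cells. The Müller-like cells differed in depth, with medians of 3179.5 UMIs in the GFP-labelled library and 8863 in the sponge-labelled library, and in mitochondrial share, with medians of 8.39% and 4.26%. Rod markers, which these cells should lack, summed to 5650 and 2906 CPM in them, so transcripts of other cells were present and more so in the GFP-labelled library. No member is among the markers used. The 7 astrocyte markers summed to 95.3 and 80.0 CPM in the Müller-like cells and to 251 and 299 CPM in the rule cells. Pax2, which defines retinal astrocytes, was at 0.318 and 0.681 CPM in the Müller-like cells, while Aldh1l1 (29.5 and 37.3 CPM) and Agt (7.43 and 14.3 CPM) were higher there than in the rule cells (15.8 and 20.5 CPM, and 3.73 and 6.07 CPM). Their part in the results was not tested except where a value is given.

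In the rule cells, 1 of the 10 genes stood at least 2-fold higher in the sponge-labelled library (Socs3), where 4.04% of 21383 measured genes did, and 2 stood at least 2-fold lower (Timp1 and Steap4), where 4.38% did. The median log2 ratio, sponge over GFP, was 0.26 over the 10 genes and -0.02 over all measured genes. In the Müller-like cells none was 2-fold higher, where 2.37% of 16724 measured genes were, and 3 were 2-fold lower (Serpina3n, Timp1 and Steap4), where 8.78% were. There the median was 0.07 over the 10 genes and 0.02 over all genes. The 10 genes therefore did not move as a block. The filament gene Vim and the signalling genes Socs3, Stat3 and Osmr stood higher in the sponge-labelled library, the secreted and metal-handling genes Serpina3n, Timp1 and Steap4 lower, and Gfap, Edn2 and Fgf2 depended on the set of cells or spanned no difference.

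**Figure D1:**
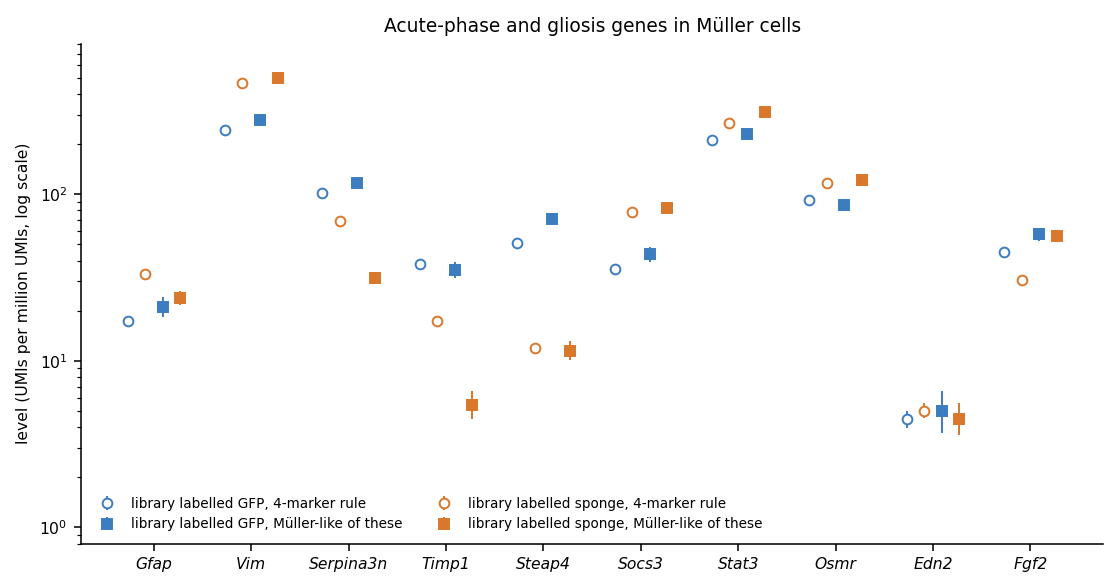
Level of each gene in CPM, on a log axis, in the rule cells (open circles) and in the Müller-like cells among them (filled squares) of the GFP-labelled library (blue) and the sponge-labelled library (orange), with exact Poisson intervals. Steap4 stands at 71.4 and 11.5 CPM in the Müller-like cells, Socs3 at 43.5 and 82.8, and Gfap at 21.1 and 23.9 with overlapping intervals.

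Vimentin, the intermediate filament that all Müller glia carry at rest, was counted at 244 CPM in the rule cells of the GFP-labelled library and 463 in those of the sponge-labelled library. Among Müller-like cells it stood at 278 CPM (268 to 289) and 499 CPM (489 to 509), a log2 ratio of 0.84 (0.78 to 0.91). With every Müller-like cell thinned to 1000 UMIs, Vim was seen in 23.8% and 37.6% of cells, against 11.7% and 13.2% of rods. Unthinned, the shares were 53.9% and 90.0%. The higher Vim of the sponge-labelled library was thus also present with counts thinned, and its level was higher in both sets of cells. Thinning made the depth of the counts equal but not the share of transcripts from other cells. The cells were also chosen before thinning, at unequal depth, and this holds for every share given at equal depth below. In the Müller-like cells the summed Müller markers also stood higher in the sponge-labelled library, at 8289 and 11993 CPM. Rod markers stood lower in it, at 5650 and 2906 CPM. The part of these shifts in the higher Vim, and in the higher Osmr, Stat3 and Socs3 below, was not tested.

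Gfap, the filament protein that marks gliosis, was at 17.4 CPM in the rule cells of the GFP-labelled library and 33.2 CPM in those of the sponge-labelled library, a log2 ratio of 0.93 (0.82 to 1.04). For the Müller-like cells alone, it was at 21.1 CPM (18.3 to 24.3) and 23.9 CPM (21.8 to 26.2), a log2 ratio of 0.18 (-0.06 to 0.43) whose interval spans 0. A few cells carried much of the difference between these readings. Astrocyte-like cells numbered 7 among the rule cells of the GFP-labelled library and 26 among those of the sponge-labelled library, and held 2.22% and 36.8% of the Gfap UMIs. Over all kept cells, the 8 and 30 astrocyte-like cells stood at 668 CPM and 1542 CPM.

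Gfap was concentrated in few cells, also among those that did not resemble astrocytes. The 1% of rule cells with the most Gfap held 48.9% of its UMIs in the GFP-labelled library and 75.6% in the sponge-labelled library, and 48.6% and 68.1% once the astrocyte-like cells were left out. The highest single cell left then held 14 and 57 Gfap UMIs. Without the astrocyte-like cells the log2 ratio of the rule cells was 0.31, and without all cells holding at least 2 detected astrocyte markers it was 0.27. At 1000 UMIs a cell, Gfap was seen in 1.46% (1.04 to 1.99) and 1.45% (0.986 to 2.05) of Müller-like cells. It was seen in 0.546% and 0.704% of rods, in which it should be absent. Gfap overlaps Gm26668 on the opposite strand, and reads of that gene may be included.

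**Figure D2:**
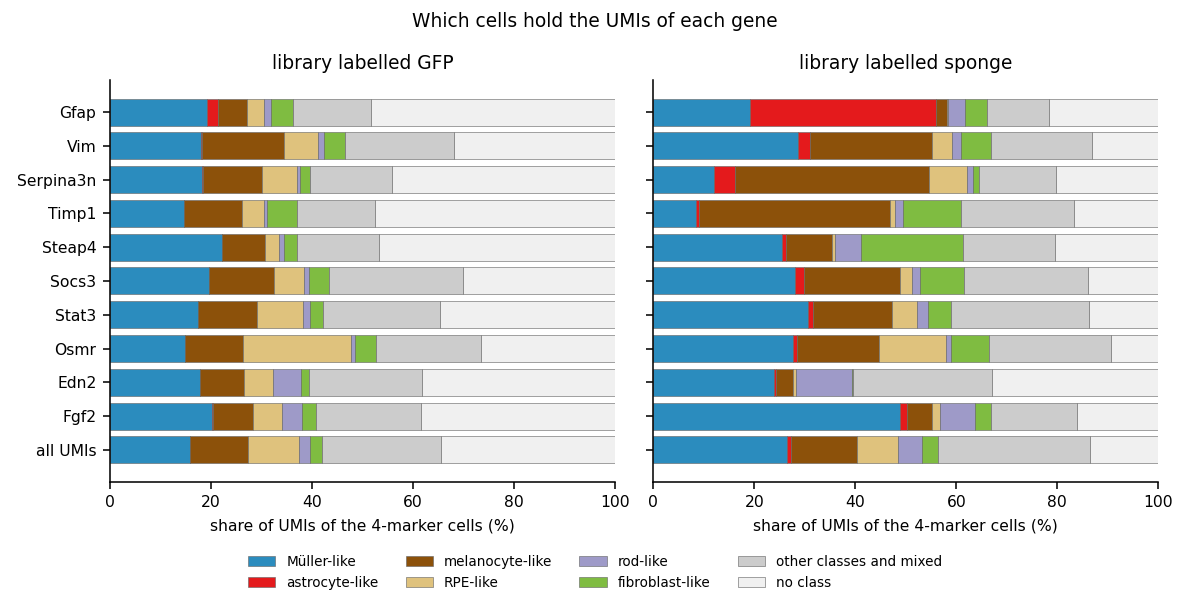
Share of each gene's UMIs among the rule cells that came from cells resembling each class, for the GFP-labelled library (left) and the sponge-labelled library (right), with the shares of all UMIs at the bottom. Astrocyte-like cells hold 36.8% of the Gfap UMIs in the sponge-labelled library and 2.22% in the GFP-labelled library, and melanocyte-like cells hold 38.4% of the Serpina3n UMIs in the sponge-labelled library.

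Serpina3n encodes a secreted serine protease inhibitor and is a common marker of reactive glia. It was at 102 CPM in the rule cells of the GFP-labelled library and 69.5 CPM in those of the sponge-labelled library, a log2 ratio of -0.55 (-0.61 to -0.50). In the Müller-like cells it was at 117 CPM (110 to 124) and 31.4 CPM (28.9 to 34.0), a log2 ratio of -1.90 (-2.05 to -1.76). Of the Serpina3n UMIs of the rule cells, 38.4% came from melanocyte-like cells in the sponge-labelled library and 11.7% in the GFP-labelled library, while these cells held 13.1% and 11.4% of all UMIs. At equal depth, 7.07% and 1.77% of Müller-like cells had a Serpina3n UMI, against 2.32% and 1.25% of rods. The share in the sponge-labelled library was thus near that of rods. The 1% of Müller-like cells with the most Serpina3n held 27.3% and 51.8% of its UMIs, so the intervals above are too narrow.

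Timp1, a secreted inhibitor of matrix metalloproteinases, was at 38.0 CPM and 17.2 CPM in the rule cells. Among Müller-like cells it was at 35.1 CPM (31.4 to 39.1) in the GFP-labelled library and 5.45 CPM (4.45 to 6.60) in the sponge-labelled library, a log2 ratio of -2.68 (-3.02 to -2.37). Melanocyte-like cells held 37.7% and fibroblast-like cells 11.6% of its UMIs among the rule cells of the sponge-labelled library. Timp1 overlaps Syn1, a gene on the opposite strand, and the sources used here do not say whether reads of the other strand were counted. At equal depth it was seen in 2.21% and 0.374% of Müller-like cells and in 1.25% and 0.244% of rods. Its UMIs also sat in few cells. The 1% of Müller-like cells with the most Timp1 held 49.8% and 70.2% of them, and the highest single cell held 32 and 11.

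Steap4, a metalloreductase of the cell membrane that reduces iron and copper, stood at 51.3 CPM and 12.0 CPM in the rule cells. For the Müller-like cells alone, it stood at 71.4 CPM (66.1 to 77.0) in the GFP-labelled library and 11.5 CPM (10.1 to 13.2) in the sponge-labelled library, a log2 ratio of -2.63 (-2.86 to -2.41). It was the gene of the 10 with the lowest log2 ratio in the rule cells, below all but 0.276% of measured genes. At equal depth, 4.67% and 0.887% of Müller-like cells held a Steap4 UMI, against 1.27% and 0.312% of rods. Its relatives in the STEAP family stood nearer to 0, with log2 ratios in the Müller-like cells of 0.60 (-0.21 to 1.54) for Steap1, -0.38 (-0.59 to -0.18) for Steap2 and 0.23 (-0.14 to 0.61) for Steap3. The 1% of Müller-like cells with the most Steap4 held 27.9% and 54.1% of the Steap4 UMIs.

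The receptor and the transcription factor of the pathway were higher in the sponge-labelled library by less. Osmr, the signalling subunit that binds oncostatin M, was at 92.2 CPM and 117 CPM in the rule cells. In the Müller-like cells it was at 85.9 CPM (80.1 to 92.0) and 122 CPM (117 to 127), a log2 ratio of 0.50 (0.39 to 0.62). Stat3 was at 212 CPM and 269 CPM in the rule cells. Among Müller-like cells it was at 231 CPM (222 to 241) and 311 CPM (303 to 319), a log2 ratio of 0.43 (0.35 to 0.50). The summed Müller markers of these cells were also higher in the sponge-labelled library, at 8289 and 11993 CPM. Whether Osmr and Stat3 rose apart from that shift was not tested.

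At equal depth the shares of Müller-like cells with a UMI were closer. They were 7.51% (6.54 to 8.58) and 8.55% (7.40 to 9.81) for Osmr, and 16.6% (15.2 to 18.0) and 18.9% (17.3 to 20.6) for Stat3. The intervals overlap in both genes. Rods stood at 2.05% and 1.35% for Osmr and at 8.98% and 9.97% for Stat3. Stat3 overlaps Stat5a on the opposite strand, and Stat5a itself had in Müller-like cells a log2 ratio of 0.06 (-0.34 to 0.49).

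Socs3, the inhibitor that STAT3 induces and that closes the loop, was at 35.4 CPM in the rule cells of the GFP-labelled library and 78.3 CPM in those of the sponge-labelled library, a log2 ratio of 1.15 (1.07 to 1.22). For the Müller-like cells alone, it was at 43.5 CPM (39.4 to 47.9) and 82.8 CPM (78.7 to 87.0), a log2 ratio of 0.93 (0.77 to 1.09). It was seen at equal depth in 2.92% and 4.62% of Müller-like cells and in 1.16% and 1.80% of rods. Its level thus moved opposite to Serpina3n, Timp1 and Steap4 in the same cells. Over classes its pattern was nearest to that of the AP-1 genes Jund and Fosb, as given below. The part of tissue dissociation in the higher Socs3 was not tested.

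Edn2, the endothelin ligand, was near the lower end of what could be read, with 47 and 86 UMIs in all Müller-like cells. It was at 4.99 CPM (3.67 to 6.63) and 4.51 CPM (3.60 to 5.56) there, a log2 ratio of -0.15 (-0.68 to 0.40), and at 4.45 and 5.02 CPM in the rule cells. Rods, its known source under stress, held more, with 14.2 CPM (11.8 to 17.1) in the GFP-labelled library and 9.16 CPM (7.81 to 10.7) in the sponge-labelled library. In Müller-like cells Edn2 was seen in 0.336% and 0.467% of cells at equal depth, below the 1.16% and 0.664% of rods. The 1% of Müller-like cells with the most Edn2 held 70.2% and 82.6% of its UMIs.

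Fgf2, the growth factor with the 4 seed matches shown above, was at 45.1 CPM and 30.6 CPM in the rule cells, a log2 ratio of -0.56 (-0.64 to -0.48). In the Müller-like cells it was at 57.5 CPM (52.8 to 62.6) and 56.4 CPM (53.1 to 59.8), a log2 ratio of -0.03 (-0.18 to 0.12). Rule cells outside the Müller-like class stood at 42.8 CPM and 21.3 CPM. At equal depth 4.79% and 5.04% of Müller-like cells held an Fgf2 UMI. Rods held it in 5.71% and 3.63% of cells. Fgf2 overlaps Nudt6, the antisense gene Fgf2os and Gm42923 on the opposite strand, and Gm43439 on its own strand. Reads of these genes may be included.

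The Müller rule has a threshold, and the cells on either side of it differed in most members. Cells with exactly 4 detected markers had Steap4 at 29.0 CPM and 10.0 CPM in the libraries labelled GFP and sponge, and cells with exactly 3 had it at 17.7 and 7.31 CPM. Serpina3n was at 69.7 and 76.5 CPM with 4 markers and at 46.0 and 37.1 CPM with 3. Gfap was at 15.9 and 25.7 CPM with 4 markers and at 9.28 and 7.12 CPM with 3. Median depth was 2842 and 3842 UMIs with 4 markers and 2370 and 2641 UMIs with 3.

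The levels were also followed over the strength of the Müller signature, the Müller-marker UMIs of a cell divided by the number expected from the mean of its library. In the GFP-labelled library, Steap4 was at 18.2 CPM in rule cells under 0.5-fold, 78.8 CPM at 1.5 to 2-fold and 46.3 CPM at 3-fold or more. Serpina3n followed the same course, with 34.8, 133 and 76.5 CPM. Within the sponge-labelled library both were lowest in the strongest Müller cells, where Steap4 was at 5.83 CPM, Serpina3n at 18.9 CPM and Timp1 at 2.26 CPM.

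Gfap without the astrocyte-like cells was at 56.0 CPM (49.1 to 63.5) at 1.5 to 2-fold and 13.0 CPM (11.2 to 15.0) at 3-fold or more in the sponge-labelled library, and at 23.3 CPM (20.3 to 26.8) and 19.9 CPM (16.0 to 24.4) in the GFP-labelled library. The order of the libraries for Gfap therefore changed with the signature, higher in the sponge-labelled library in the ranges from 0.5-fold to 3-fold and lower in it at 3-fold or more and under 0.5-fold, where it was at 2.90 CPM (2.21 to 3.74) against 5.28 CPM (3.41 to 7.79). Vim and Socs3 were higher in the sponge-labelled library in every range. Fgf2 was lower in it under 1.5-fold and close from 2-fold on, with 56.2 and 56.6 CPM at 2 to 3-fold. Cells in the strongest range numbered 1462 and 1681.

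**Figure D3:**
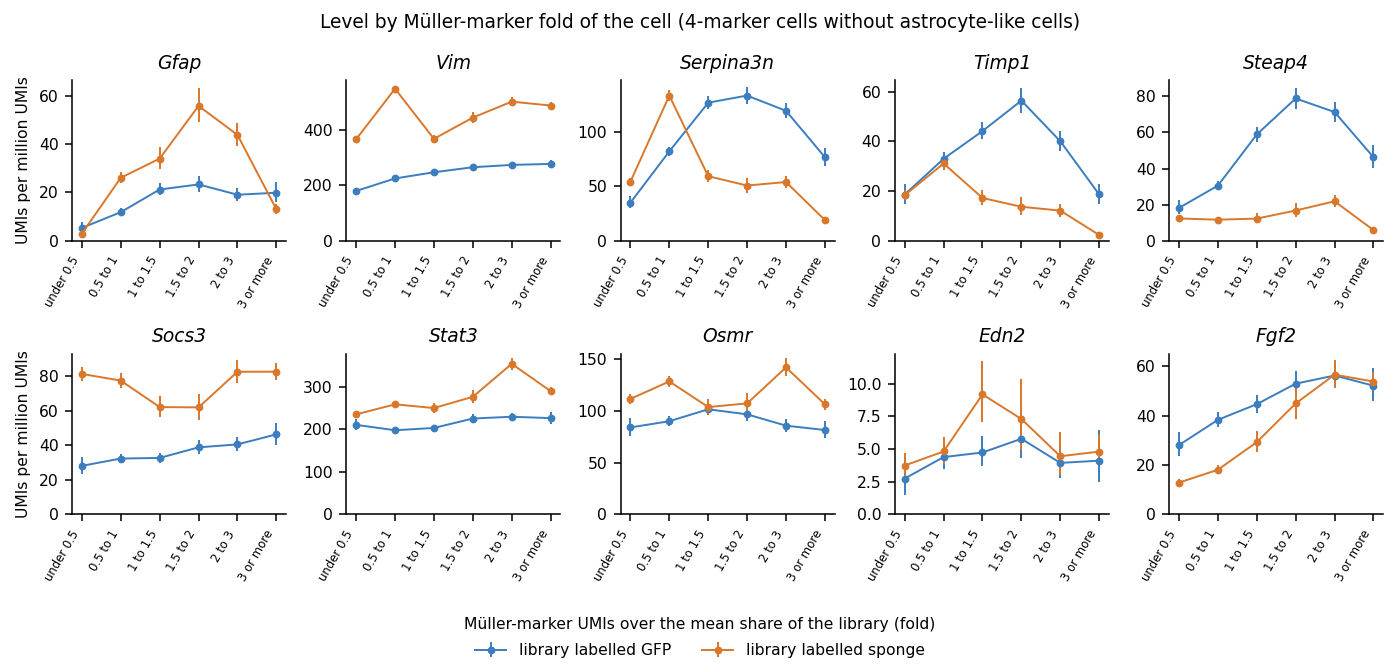
Level of each gene (CPM) in rule cells without the astrocyte-like ones, grouped by their Müller-marker UMIs over the mean share of the library (fold), for the GFP-labelled library (blue) and the sponge-labelled library (orange), with exact Poisson intervals. Steap4, Timp1 and Serpina3n reach their highest level at 1.5 to 2-fold in the GFP-labelled library, and Gfap is lower in the sponge-labelled library at both ends of the axis and higher between them.

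Across the other cells, classes were named by the same marker score, and a class resembles its type only by those markers. The classes include cells that also passed the Müller rule. Orders are over classes with at least 50 cells in a library, which leaves out cells resembling astrocytes and ganglion cells, and those resembling horizontal cells in the sponge-labelled library. Of the classes left out, astrocyte-like cells held Vim at 779 and 1507 CPM and Serpina3n at 167 and 468 CPM, from 8 and 30 cells. Horizontal cell-like cells of the sponge-labelled library held Vim at 1023 CPM and Serpina3n at 145 CPM, from 29 cells. All 106 of these Serpina3n UMIs came from the 17 cells that also passed the Müller rule. Among the classes ordered, fibroblast-like cells, the matrix-producing cells around the retina, led the order for Vim, Timp1 and Socs3 in both libraries. These cells stood at 515 and 961 CPM for Vim, 93.4 and 88.1 CPM for Timp1, and 83.7 and 244 CPM for Socs3. Müller-like cells held rank 2 for Timp1 in the GFP-labelled library and rank 5 in the sponge-labelled library, where 5.45 CPM overlapped the 3.78 CPM of cones. For Steap4 they led in the GFP-labelled library with 71.4 CPM, clear of the 44.8 CPM of fibroblast-like cells, and held rank 3 in the sponge-labelled library, where fibroblast-like cells stood at 88.1 CPM.

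Among the classes ordered, Serpina3n changed its leading class. Müller-like cells led in the GFP-labelled library with 117 CPM, ahead of the 88.6 CPM of melanocyte-like cells. In the sponge-labelled library melanocyte-like cells led with 204 CPM (196 to 212), and Müller-like cells held rank 6 with 31.4 CPM. Melanocytes are pigment cells of the choroid and iris, but the melanocyte-like class was set by pigment-gene markers alone. Grem1 and Fabp3 were among its top 10 genes in the sponge-labelled library alone, and Oca2 and Mlana in the GFP-labelled library alone. Whether the class held the same cells in both libraries was not tested. Its median depth was 3720 and 11489 UMIs.

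Gfap, aside from the astrocyte-like cells, did not separate Müller-like from fibroblast-like cells in either library, with 21.1 and 17.7 CPM in the GFP-labelled library and 23.9 and 24.4 CPM in the sponge-labelled library. Of the fibroblast-like Gfap UMIs, 44 of 71 in the GFP-labelled library and 106 of 113 in the sponge-labelled library came from rule cells. Osmr was at 191 CPM (182 to 201) in RPE-like and 177 CPM (165 to 191) in fibroblast-like cells of the GFP-labelled library, above the 85.9 CPM of Müller-like cells. Within the sponge-labelled library fibroblast-like cells stood at 305 CPM and RPE-like cells at 181 CPM. Stat3 was highest in cells resembling T and NK cells, lymphocytes that signal through it, with 335 CPM (249 to 442) and 849 CPM (764 to 941), from 55 and 64 cells.

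Edn2 was highest in rods in the GFP-labelled library. In the sponge-labelled library, cells resembling the ocular surface epithelium, the keratin-rich cover of the front of the eye, stood higher, with 4.57 and 21.3 CPM in the libraries labelled GFP and sponge. Their median depth was 6739.5 and 25695 UMIs. Fgf2 was highest in rods in the GFP-labelled library, with 69.1 CPM (63.6 to 75.1) against 57.5 CPM (52.8 to 62.6) in Müller-like cells. Within the sponge-labelled library Müller-like cells led with 56.4 CPM, clear of rods at 42.2 CPM (39.3 to 45.3).

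**Figure D4:**
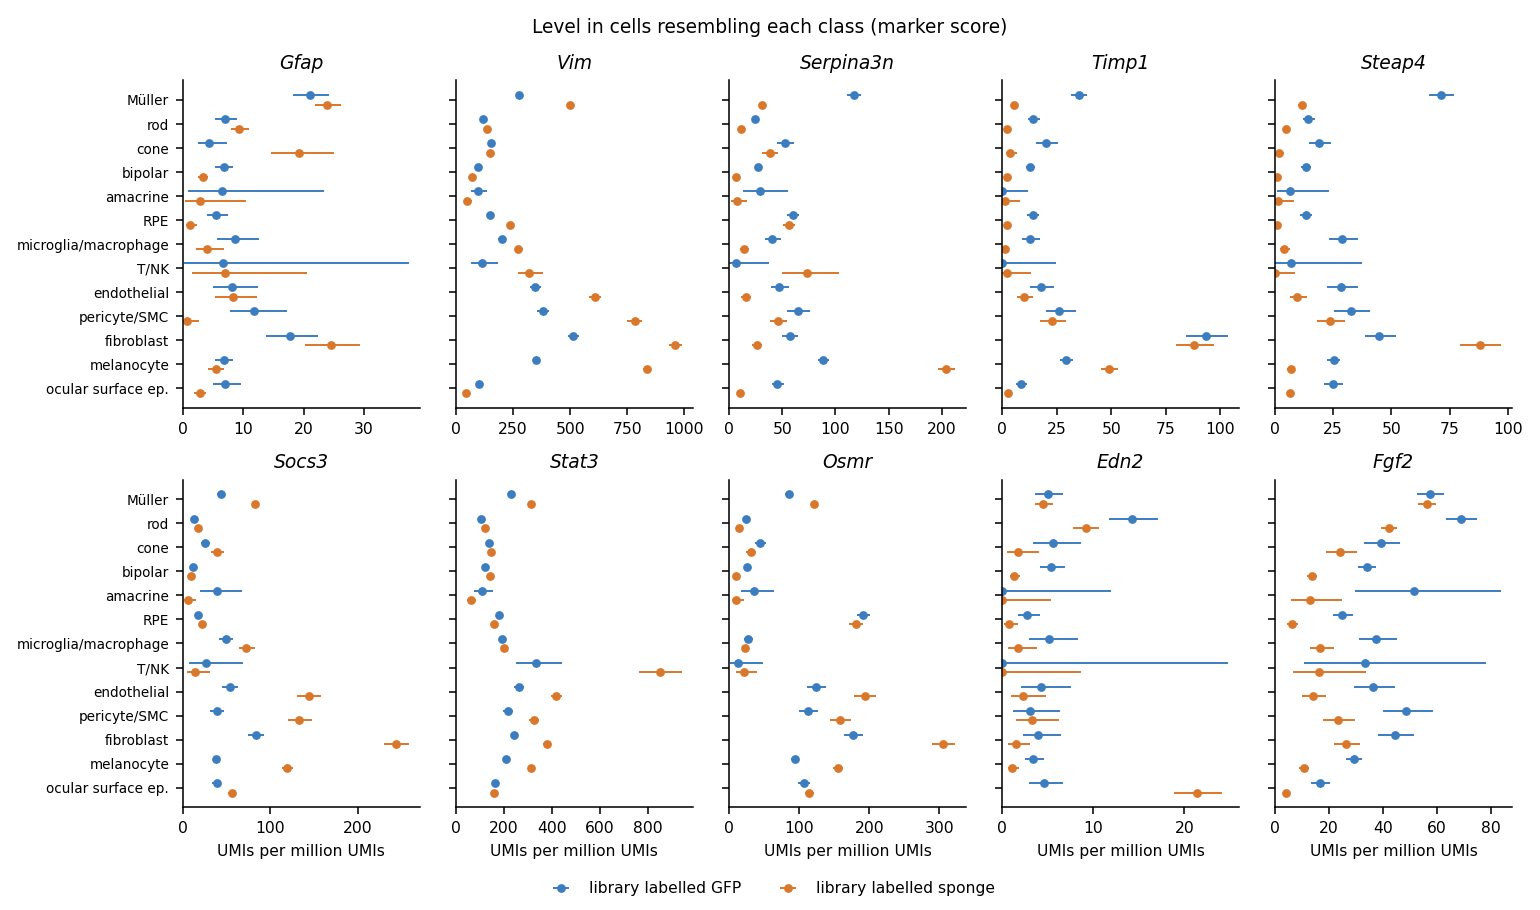
Level of each gene (CPM) in cells resembling 13 classes, for the GFP-labelled library (blue) and the sponge-labelled library (orange), with exact Poisson intervals; cells resembling astrocytes, ganglion cells and horizontal cells are left out for their number. Among the classes shown, fibroblast-like cells lead for Vim, Timp1 and Socs3 in both libraries, and the Serpina3n lead passes from Müller-like to melanocyte-like cells.

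The differences between the libraries were also found in other classes. Steap4 was lower in the sponge-labelled library, with the interval of the log2 ratio below 0, in 9 of the 11 classes in which it was measured, the Müller-like class included, Serpina3n in 9 of 12 and Timp1 in 8 of 11. Rods gave log2 ratios of -1.59 for Steap4, -1.10 for Serpina3n and -2.55 for Timp1, from 14.4 and 4.77 CPM, 24.7 and 11.5 CPM, and 14.4 and 2.44 CPM. Bipolar cells gave -3.78, -2.06 and -2.52. Free transcripts in the suspension can add UMIs to every class. Median depth also differed, with 1701.5 and 2032 UMIs in rods and 2748 and 6560 UMIs in bipolar cells of the libraries labelled GFP and sponge. The part of either in these ratios was not tested.

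A few classes went the other way. Steap4 was higher in fibroblast-like cells of the sponge-labelled library, at 44.8 and 88.1 CPM, a log2 ratio of 0.97 (0.72 to 1.23). Timp1 was higher in melanocyte-like cells, at 29.5 and 49.0 CPM, a log2 ratio of 0.73 (0.54 to 0.92). Serpina3n was higher in melanocyte-like cells, with a log2 ratio of 1.20 (1.10 to 1.31), and in T and NK-like cells, where 1 and 31 UMIs gave 2.88 (0.86 to 8.79). Rule cells held part of these UMIs in the sponge-labelled library, 175 of 407 for Steap4 and 467 of 607 for Timp1. For Serpina3n they held 1919 of 2524 in melanocyte-like cells and 29 of 31 in T and NK-like cells.

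Socs3 was higher in the sponge-labelled library in 9 of 11 classes and lower in none, and its log2 ratio reached 1.78 (1.45 to 2.14) in cells resembling pericytes and smooth muscle, the contractile cells of vessels. Vim was higher in 9 of 13 classes and lower in amacrine, bipolar and ocular surface epithelium-like cells. Fgf2 was lower in 11 of 12 classes, all but the Müller-like cells, with a median log2 ratio of -1.24 over classes. Osmr was higher in 5 of 11 and lower in 3, which were rods, cones and bipolar cells.

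Gfap was higher in cones, with 4.40 and 19.3 CPM and a log2 ratio of 2.10 (1.29 to 3.06), and in fibroblast-like cells, and it was lower in 5 of 11 classes. Both rises sat largely in rule cells. Of the 56 Gfap UMIs of cones in the sponge-labelled library, 52 came from the 127 of 572 cones that passed the Müller rule. Of the 113 in fibroblast-like cells there, 106 came from 186 of 509 cells. In the GFP-labelled library it was 9 of 15 UMIs and 44 of 71. Edn2 was lower in 7 of the 9 classes in which it was measured and higher in the ocular surface epithelium-like cells, with a log2 ratio of 2.20 (1.64 to 2.86). In cells resembling pericytes and smooth muscle Gfap was counted 27 and 2 times, a log2 ratio of -3.73 (-7.14 to -2.03).

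Counted by class, at least 2-fold lower values were found in every class but T and NK-like cells, with the highest counts in cells resembling bipolar cells, microglia and macrophages, and the ocular surface epithelium. Of the 10 genes, 3 were lower in rods, where 3.24% of measured genes were, 3 in cones (3.1%), 7 in bipolar cells (6.35%), 5 in RPE-like cells (19.1%), 6 in cells resembling microglia and macrophages (9.94%) and 6 in cells resembling the ocular surface epithelium (20.6%). Melanocyte-like cells had 3 (15.3%) and fibroblast-like cells 2 (7.08%). Of the 9 genes measured there, endothelial-like cells had 3 lower (7.03%) and cells resembling pericytes and smooth muscle 2 (5.26%). Of the 3 genes measured in amacrine-like cells, 1 was lower (5.74%), and of the 3 measured in T and NK-like cells, 0 were (6.55%).

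At least 2-fold higher values were fewer. None of the 10 genes was 2-fold higher in rods (2.07% of measured genes), bipolar cells (0.816%), RPE-like cells (2.32%) or cells resembling microglia and macrophages (5.39%), and none of the 3 measured was in amacrine-like cells (5.69%). A single gene was higher in 4 classes: cones had Gfap (3.24%), the ocular surface epithelium-like cells Edn2 (3.29%), and the endothelial-like (5.2%) and fibroblast-like cells (5.18%) Socs3. Vim and Socs3 were 2-fold higher in cells resembling pericytes and smooth muscle (6.88%). Melanocyte-like cells had 3, Vim, Serpina3n and Socs3 (4.93%), and T and NK-like cells had Vim, Serpina3n and Stat3 (12.6%).

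**Figure D5:**
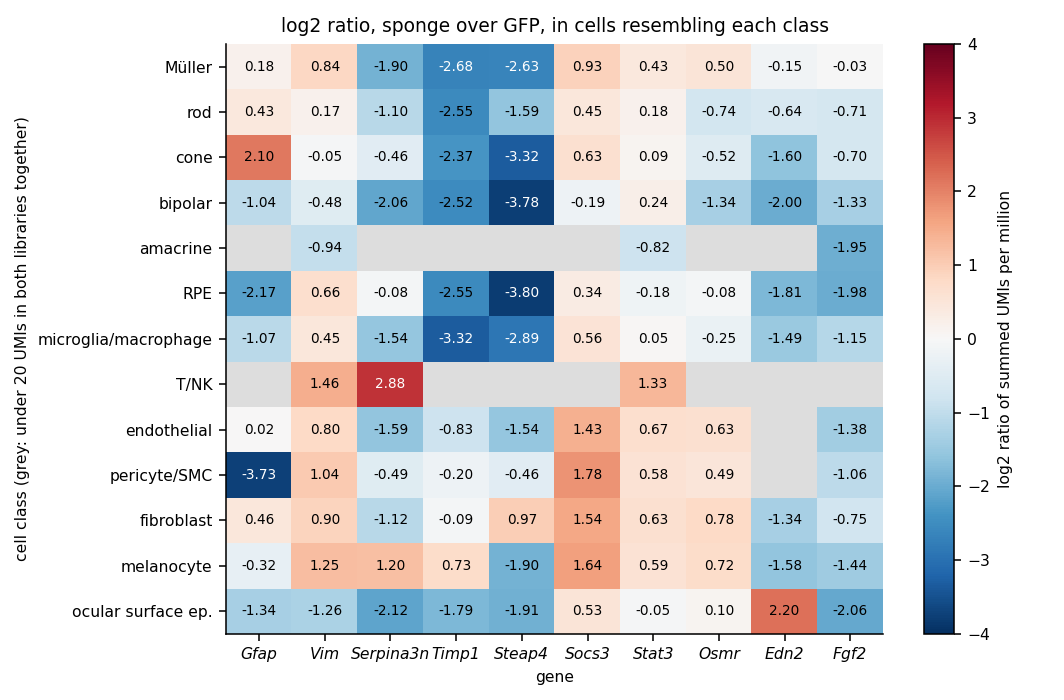
Log2 ratio of summed CPM, the sponge-labelled library over the GFP-labelled library, for each gene (columns) in cells resembling each class (rows), with red for higher and blue for lower in the sponge-labelled library and grey for under 20 UMIs. Steap4 ranges from -3.80 in RPE-like to 0.97 in fibroblast-like cells, and Socs3 from -0.19 in bipolar to 1.78 in pericyte-like cells.

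Within single Müller-like cells the 10 genes were thinly spread. At 1000 UMIs a cell, none of them was seen in 50.1% of the cells of the GFP-labelled library and 42.0% of those of the sponge-labelled library, and 1 of them in 33.9% and 40.3%. In the GFP-labelled library, 35 of the 189 cells with a Serpina3n UMI also had a Steap4 UMI (18.5%, exact interval 13.3 to 24.8), against 3.62% of cells without Serpina3n. Timp1 was seen in 13.2% (8.75 to 18.9) of Serpina3n cells and 1.37% of the others. Socs3 was seen in 7.41% (4.11 to 12.1) and 2.57%.

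In the sponge-labelled library 38 Müller-like cells had a Serpina3n UMI. Of these, 5 had Steap4 (13.2%, 4.41 to 28.1), against 0.671% of the others, and 1 had Socs3 (2.63%, 0.0666 to 13.8), against 4.66% of the others. Cells of a library share their preparation, so these shares describe the cells and are no test.

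Of the lists around the 10 genes, the signalling lists lay mostly above 0 in the rule cells. Over all measured genes, 47.9% lay above 0 in the rule cells and 51.6% in the Müller-like cells, and the shares at least 2-fold higher or lower were those given above, 4.04% and 4.38%, and 2.37% and 8.78%. Of 12 genes of the interleukin-6 family and its receptors, 11 had a log2 ratio above 0 and none passed 2-fold, with a median of 0.35; in the Müller-like cells it was 7 of 10, with a median of 0.34. The highest were Il11ra1, the interleukin-11 receptor, with 20.3 and 34.8 CPM and a log2 ratio of 0.78 (0.68 to 0.88), and Il6ra with 0.65. The lowest were Lifr, the leukaemia inhibitory factor receptor, with -0.39 (-0.46 to -0.32), and Osm with 0.13 (-0.62 to 0.91). Osm, the ligand of the oncostatin M receptor, was counted 27 and 36 times in all rule cells.

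Of 16 kinases, factors and inhibitors of the JAK-STAT pathway, 13 lay above 0 and 2 were at least 2-fold higher, with a median of 0.26; in the Müller-like cells 10 lay above 0 and 2 were at least 2-fold higher, with a median of 0.12. Among those 2-fold higher was Socs1, an inhibitor of cytokine signalling through the JAK kinases, with a log2 ratio of 1.23 (1.02 to 1.44). The lowest were Stat5b with -0.22 and the phosphatase gene Ptpn2 with -0.11.

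Of 12 genes listed as induced by STAT3, 11 lay above 0 and 3 were at least 2-fold higher, with a median of 0.81, and in the Müller-like cells 10 lay above 0 and 5 were at least 2-fold higher, with a median of 0.96. The highest were Pim3, a kinase, with 1.31 (1.20 to 1.43) and Junb, an AP-1 factor, with 402 and 978 CPM and 1.28 (1.26 to 1.30). The lowest were Hif1a with -0.29 and Il4ra with 0.48. Many of these genes, Junb among them, are also early-response genes that dissociation of tissue is known to induce, and that part was not tested.

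The other acute-phase genes went in both directions, with 3 of 8 measured above 0 and a median of -0.14 in the rule cells, and 1 of 6 above 0 and a median of -0.24 in the Müller-like cells. Lcn2, lipocalin 2, which binds iron-loaded siderophores, was at 744 CPM in the GFP-labelled library and 47.8 CPM in the sponge-labelled library, a log2 ratio of -3.96 (-4.01 to -3.91). Among Müller-like cells it was at 1062 CPM and 30.3 CPM, with -5.13 (-5.26 to -5.01). C3, the central complement component, had -0.91 (-1.06 to -0.76) in the rule cells and -3.59 in the Müller-like cells. Ptx3, a pentraxin, and Itih4 had 1.97 and 1.68 in the rule cells. For the Müller-like cells alone, Ptx3 was at 6.16 and 5.50 CPM, and Itih4 was under the count needed.

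Of the other genes shared by reactive astrocytes, 5 of 7 lay above 0, with a median of 0.61, in the rule cells, and 3 of 6, with a median of 0.07, in the Müller-like cells. Besides Lcn2, these include Aspg, with 5 and 28 UMIs and 2.10 (0.82 to 3.94), Cxcl10, an interferon-induced chemokine, with 1.16 (1.08 to 1.24), and Cp, ceruloplasmin, with -0.37. All 6 other genes listed with the intermediate filaments, the linker gene Plec included, lay above 0 in the rule cells, with a median of 0.66. In the Müller-like cells 4 of 5 did, with a median of 0.41. Plec, the linker protein plectin, had 0.89 and Nes, nestin, 0.70, and the lowest were Des with 0.47 and Prph with 0.28. In the Müller-like cells Des, a muscle filament, was at 2.12 and 0.629 CPM.

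The remaining lists lay near 0 or were mixed. The endothelin pathway had 3 of 6 genes above 0, with Edn3 at 0.53, Edn1 at 0.37, the receptor Ednrb at -0.43 and the converting enzyme Ece2 at -0.50 in the rule cells. Of the same 6 genes, 2 lay above 0 in the Müller-like cells, and both Edn3, at -2.43 (-3.16 to -1.78), and the receptor Ednra, at -3.28 (-4.49 to -2.34) and named after its values were seen, were at least 2-fold lower. The FGF pathway had 5 of 13 above 0 and a median of -0.12, with Spry1, an inhibitor of FGF signalling, at 0.77 and Fgfr3 at 0.53, and with Fgf12 at -0.39 and Etv5 at -0.37, in the rule cells. In the Müller-like cells 8 of 12 lay above 0 with a median of 0.13, Spry1 was at 1.06 (0.76 to 1.39) and Fgfr3, with 19 and 17 UMIs, at -1.17 (-2.21 to -0.16). Among TIMPs and metalloproteinases 5 of 8 lay above 0 in the rule cells and 4 of 6 in the Müller-like cells. Mmp14 had 0.69 and Timp2 0.58, while Mmp3, with 5.63 and 2.18 CPM, had -1.36 (-1.65 to -1.09) in the rule cells and Mmp2 -0.91.

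Of the serpins of clade A3 other than Serpina3n, 3 were measured in the rule cells. Serpina3i had 111 and 31 UMIs and a log2 ratio of -2.10 (-2.74 to -1.53), Serpina3g had -0.34 (-0.79 to 0.10) and Serpina3f 0.75 (-0.26 to 1.91). These genes are near copies of one another, so reads may have been split between them or lost. In the rule cells the other STEAP genes stood at 0.93 for Steap1, 0.26 for Steap3 and -0.15 for Steap2.

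The genes whose pattern over 27 class and library sums was most like that of each member were ranked by Pearson correlation of log2(CPM + 1) over 16592 genes, as a description of sums that share their libraries. Steap4 was nearest to Nupr1 (r = 0.82), Snhg18 (0.82) and Cped1 (0.82), and Timp1 to the fibroblast genes Col1a1 (0.87), Ddr2 (0.87) and Mxra8 (0.85). Serpina3n had Cntf (0.79) and Tmco1 (0.77) among its 3 nearest genes. Socs3 was nearest to the AP-1 genes Jund (0.89) and Fosb (0.89) and to Ifitm3 (0.89).

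Osmr had Amotl2 (0.94) and Hes1 (0.92) among its 3 nearest genes. Stat3 was nearest to Serpinb9 (0.87), H2-Q4 (0.86) and Slc44a2 (0.85), and Vim to Sav1 (0.92), Gbp5 (0.88) and Tmem140 (0.87). Gfap had weaker neighbours, Add3 (0.76), Plagl1 (0.76) and Scn7a (0.74). Edn2 was nearest to Marveld3 (0.81), Ccdc120 (0.77) and Tirap (0.77), and Fgf2 to Klhl9 (0.86), Son (0.85) and Sms (0.85). Among the members themselves the closest pair was Steap4 and Timp1 (0.74), followed by Vim and Socs3 (0.73) and by Osmr and Socs3 (0.71), while Gfap was closest to Fgf2 (0.60).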

How the data were processed

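Optic cup cells were profiled with the 10x Genomics 3' kit V3.1, per the labels' protocols. The deposited matrices hold counts of UMIs per gene and barcode, without normalization, made by the authors with Cell Ranger 7.0.0 on mm10, per the submitters' processing notes. The sources used here do not say how introns, strand and cell calling were handled. Kept barcodes held 300 or more genes and 500 or more UMIs, of which no more than 25% were mitochondrial (123040365 and 132067896 UMIs before the filter). No doublet caller was used.

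Müller glia had at least 4 of 7 markers detected. A cell resembled a class when the summed UMIs of its markers were at least 2-fold over the library mean, with a Poisson log-likelihood gain of at least 5 and at least 3 markers seen; cells whose next class reached 0.5 of the best score were mixed. This scoring was chosen after seeing the data, while the members and gene lists were chosen with earlier results of these data known. UMIs were summed per class and library (CPM). Log2 ratios add 0.5 to both counts, for genes with at least 20 counts over both libraries, and called means at least 2-fold. Intervals are exact Poisson for CPM, exact binomial for ratios and exact Clopper-Pearson for shares. Shares are also given with cells thinned to 1000 UMIs after they were chosen at full depth. Named genes were the members, the 2 highest and 2 lowest of each list in the rule cells, and the 3 nearest genes of each member. A few genes that this rule names are not reported here. Ratios were tested on simulated data. Tools were numpy 2.4.6, pandas 2.3.3, scipy 1.17.1 and edgeR 4.0.16 (TMM scaling alone). Alternatives in scaling, marker rule, depth, cell filter, gene filter and pseudocount were tried.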

Additional observations from a re-analysis of the deposited data

Results flagged for a closer look

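Serpina3n stood lower in the sponge-labelled library in Müller-like cells and higher in cells resembling 2 other classes, opposite directions under the same contrast. The log2 ratio, sponge over GFP, was -1.90 (-2.05 to -1.76) in Müller-like cells, 1.202 (1.10 to 1.31) in melanocyte-like cells and 2.88 (0.86 to 8.79) in cells resembling T and NK cells, the last from 1 and 31 UMIs in 55 and 64 cells. In the sponge-labelled library, 1919 of the 2524 Serpina3n UMIs of melanocyte-like cells came from the 642 of 995 that also passed the Müller rule. For T and NK-like cells it was 29 of 31 UMIs, from 13 of 64 cells. In the GFP-labelled library it was 709 of 1103 UMIs for melanocyte-like cells, from 1248 of 2865. With 1 library per group these differences between classes were not tested. Median depth in melanocyte-like cells was 3720 and 11489 UMIs, and its part in the result was not tested.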

How the results depend on the processing

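Over 17 alternatives, 12 of them planned and 5 added after seeing the data, Vim, Serpina3n, Timp1, Steap4, Socs3 and Stat3 kept the sign of their log2 ratio in all. Gfap was -0.44 in Müller-like cells taken at 3-fold marker excess in place of 2-fold, Osmr was -0.18 without cells holding 4 or more markers of another class (137 and 102 cells were left), Fgf2 was 0.03 when the rule was applied after thinning, and Edn2 changed sign in 3. Steap4 ranged from -3.01 to -1.72, Timp1 from -3.11 to -0.99, Serpina3n from -2.06 to -0.49 and Socs3 from 0.88 to 1.18. The count of members at least 2-fold lower was 1 with at least 3 of 7 markers in place of 2, and 3, Serpina3n being the added gene, in 8 of the 17: with levels thinned, with rule and levels thinned, with cells weighted equally, without cells holding 4 or more markers of another class, whether or not rod and bipolar markers counted, and in the 3 sets of Müller-like cells. The count at least 2-fold higher was 2 under the stricter cell filter in place of 1. It was 0 with levels thinned, with rule and levels thinned, with cells weighted equally, in Müller-like cells at 2-, 1.5- and 3-fold, and without cells holding 4 or more markers of a class other than rods and bipolar cells.

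Of all measured genes, 864 were at least 2-fold higher and 936 lower. The higher count was 357 with the rule and levels thinned, 349 with levels thinned, 500 with cells weighted equally, 348 without cells holding 4 or more markers of another class, 2125 with no gene filter, 397, 410 and 416 in Müller-like cells at 2-, 1.5- and 3-fold, and 398 without cells holding markers of a class other than rods and bipolar cells. The lower count was 602 with the rule and levels thinned, 372 with levels thinned, 316 without cells of another class, 3190 with no gene filter and 1469 in Müller-like cells. Fewer genes were measured in the smaller sets; beyond that the cause was not tested. Median-of-ratios and TMM scaling removed a shift of -0.02 and -0.03, so log2 ratios came out higher by that much.

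No paired analysis was possible because each group is 1 library whose cells are not assigned to mice. Depth limits Edn2, read from 47 and 86 UMIs in Müller-like cells.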
